A study of Saccharomyces cerevisiae and Saccharomyces cerevisiae S288C with 30 samples.

Results

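GCR1 (YPL075W, chromosome XVI, 412254 to 415362 on the plus strand of sacCer3/R64) encodes a transcriptional activator of glycolytic genes in budding yeast, *Saccharomyces cerevisiae*. Every row of the deposited tables that falls in this gene was taken: 2 of 405 RNA-seq splicing events, 1 of 466 Branch-seq branch points and 0 of 58 Lariat-seq junctions. The RNA-seq libraries came from 13 groups of 2 biological replicates. Strand-specific TruSeq libraries, whose values are labelled polyA, were made from S288C cells labelled WT, dbr1_null and upf1_null. All were grown in YPD to OD600 0.5 to 1. Strand-specific Ribo-Zero libraries (total RNA less rRNA) were made from S288c cells labelled dbr1, +rap and -rap, from cultures labelled sk1, and from a sporulation course sampled at 0, 3, 6, 7.5, 8.5 and 12 h, the last 2 sets in the SK1 strain. The labels +rap and -rap are read here as rapamycin-treated and untreated cells. The labels give no further genotype for the Ribo-Zero dbr1 cells, do not say how the null strains were made, and name no control for the dbr1 or sk1 groups, which are therefore set against -rap. Branch-seq (3 gel fractions pooled in 1 column) and Lariat-seq (1 library) both started from lariat RNA cut from a 2D gel, from S288C cells at OD600 0.94 to 0.98 whose genotype is not labelled.

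Gcr1 works with its partner Gcr2 and with the DNA-binding protein Rap1 at promoters of glycolytic genes, and is also found at ribosomal protein genes. The GCR1 gene is split by an unusually long intron that begins just after the start codon, so that nearly all of the protein is encoded downstream of it. Spliceosomal introns leave as lariats, which the debranching enzyme Dbr1 opens, and transcripts that keep an intron often meet an early stop codon and are then removed by nonsense-mediated decay, which needs the helicase Upf1.

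Both GCR1 events of the RNA-seq table lay at this long intron. The annotated intron ran from 412262 to 413012 and measured 751 bases. The unannotated intron, absent from the annotation per the authors' table, ran from 412257 to 412995 and measured 739 bases. Its upstream end lay 5 bases and its downstream end 17 bases before those of the annotated intron, so the introns shared neither splice site but overlapped along nearly all of their length. Of 98 unannotated introns in the table, 3 overlapped an annotated intron on the same strand, those of GCR1, APE2 and LSM2, and none of the 3 shared an end with it. The unannotated GCR1 intron left 3 bases of the gene before it, which is the length of the start codon alone, against 8 bases for the annotated one. The lengths differed by 12 bases, or 4 codons. Removing the annotated intron from the RefSeq gene left 2358 bases and removing the unannotated one left 2370 bases, both whole numbers of codons (786 and 790), while the unspliced gene of 3109 bases is not a whole number of codons.

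**Figure D1:**
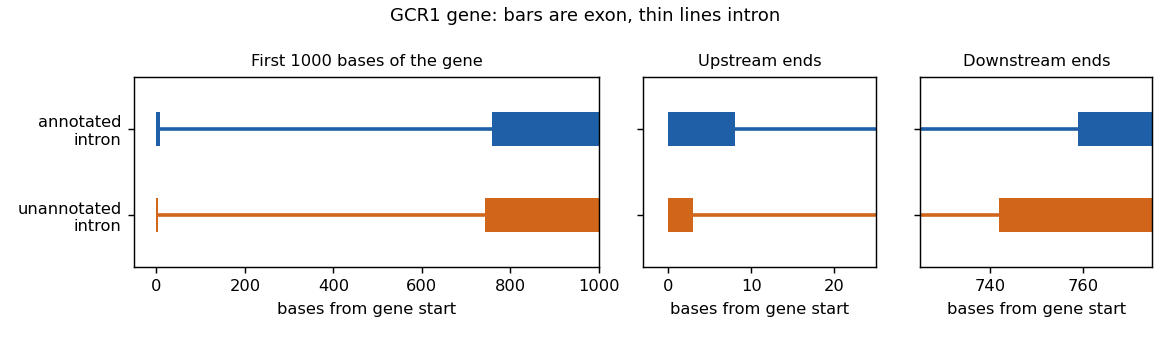
Map of both GCR1 introns, in bases from the gene start. Bars are exon and thin lines intron; the middle and right panels enlarge the ends, which lie 5 bases apart upstream and 17 bases apart downstream.

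The annotated GCR1 intron was among the longest of its kind. Among 279 annotated introns, 3 were longer, and the median length was 143 bases. Outside ribosomal protein genes, 11 annotated introns reached 400 bases, and those of DBP2, an RNA helicase gene (1002 bases), YHL050C (773 bases) and YRA1, an mRNA export factor gene (766 bases), exceeded GCR1.

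RNA-seq values were deposited as PSI, a fraction from 0 to 1 with 2 decimals. PSI is not defined in the sources used here. Its values were low for most annotated introns, as a retained share would be, and PSI is read here as retention. It was higher in Ribo-Zero dbr1, where reads of excised introns kept as lariats may also enter it, at GCR1 included. That part was not tested. The reads behind PSI are not given, so the depth at GCR1 is unknown and no counting interval is given. Between 231 and 394 of the 405 events had a value in a given library, and the 4 libraries of 7.5 and 8.5 h had the fewest (231 to 280, against 312 or more in every other library). Differences were tested on log2((PSI + 0.01)/(1 − PSI + 0.01)), called log2 odds, over all events of the table with limma, two-sided, at a Benjamini-Hochberg adjusted p under 0.05. A single step of 0.01 in PSI weighs most near 0 and 1 on this scale.

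Outside sporulation, both GCR1 introns were read as retained almost everywhere. In WT the annotated intron had a PSI of 0.99 in replicate 1 and 1 in replicate 2 (0.995 ± 0.00707, SD, n = 2), and the unannotated intron had the same values. In -rap they were both at 0.99 and 0.98 (0.985 ± 0.00707, n = 2). In sk1 they were both at 0.98 and 0.97 (0.975 ± 0.00707, n = 2). Every one of the 14 libraries outside sporulation lay between 0.97 and 1 for either intron.

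This level stood far above that of most annotated introns. The median annotated intron had a mean PSI of 0.213 in WT, where 2 of 260 annotated introns (HAC1 and YJR079W) were higher than GCR1 and those of COI1 and YHL050C were level with it. A mean of at least 0.95 was found for 20 of the 260 (7.69%). These 20 held, beside GCR1, HAC1, the gene of the unfolded protein response factor whose intron is cut by Ire1 and not by the spliceosome, the meiotic genes DMC1, PCH2 and REC107, the vacuolar ATPase gene VMA9, COI1, and subtelomeric genes such as YHL050C. In -rap, 8 of 206 annotated introns were higher than the annotated GCR1 intron, and in sk1 3 of 202. The unannotated intron was at the level usual for its class, whose library medians ran from 0.97 to 0.99.

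**Figure D2:**
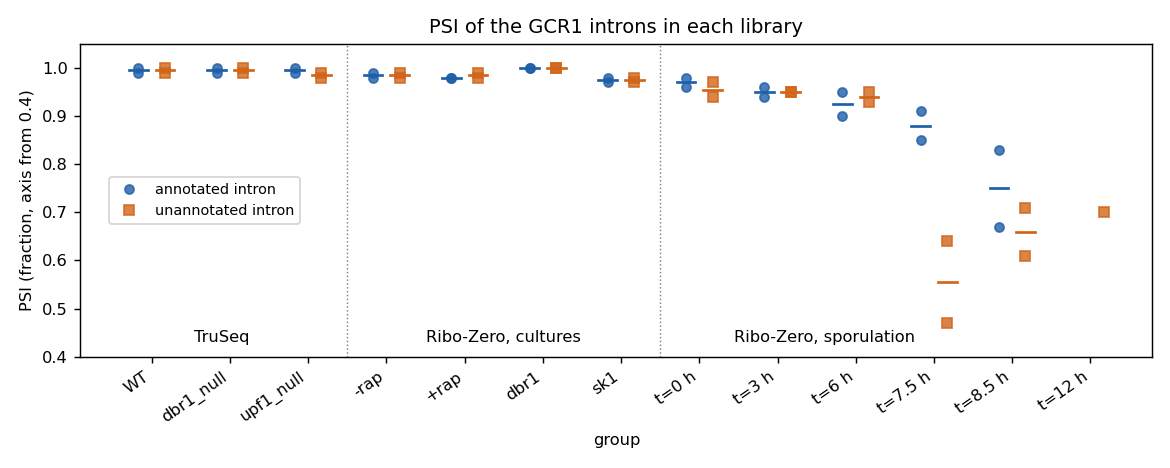
PSI of the annotated (blue circles) and unannotated (orange squares) GCR1 intron in each library, by group, with a short line at the mean of 2 libraries; the vertical axis starts at 0.4. All 14 libraries outside sporulation lie between 0.97 and 1, and the unannotated intron lies between 0.47 and 0.71 from 7.5 h on.

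A lariat branch point was nevertheless recovered from this gene. Branch-seq gave 1 annotated branch point, at XVI:412958 on the plus strand in sacCer2 coordinates, with 28.9 CPM. It ranked 121 among the annotated branch points, whose median was 113 CPM and whose range was 0.0834 to 2850 CPM. The value was 692 times the smallest CPM in either list (0.0417), and all 466 values were whole multiples of that step to within 0.01. No GCR1 site was among the unannotated branch points. Branch-seq has 1 pooled value per site, so no replicate error can be given.

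Branch-seq values of introns with like PSI or like length were set beside it. Of the 20 annotated introns with a WT PSI of at least 0.95, 6 lay in genes with an annotated Branch-seq site (7 sites), and the 6 sites other than GCR1 had 1.38 to 352 CPM. VMA9 had 2 sites, with 352 and 298 CPM, COI1 1 with 151 CPM, and REC107, PCH2 and DMC1 1 each, with 15.5, 2.71 and 1.38 CPM. Of the 11 long introns, 4 lay in genes with a site. GCR1 had the highest value of these, against 3.38 CPM for YRA1 and 0.292 CPM each for DBP2 and GLC7, the gene of a protein phosphatase. These CPM are counts per branch point with no scaling for length or transcript amount. Mean WT PSI was 0.995 for GCR1, 0.39 for YRA1, 0.075 for GLC7 and 0.025 for DBP2, so higher CPM did not go with lower PSI here. The sites were matched by gene name, since Branch-seq is on another genome build. Which of the GCR1 introns the branch point belongs to was therefore not tested.

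Lariat-seq gave no GCR1 junction within 1000 bases of the gene. It held 6 sites on chromosome XVI, 3 of them on the plus strand, and its sites had 1 to 735 junction reads (median 11.5). With 1 library, the lack of a GCR1 junction sets no limit on its lariats beyond this depth.

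Both kinds of library held a group labelled for DBR1, dbr1_null in TruSeq and dbr1 in Ribo-Zero. In TruSeq, dbr1_null gave 0.99 and 1 for either intron, exactly the WT values. The difference was 0 log2 odds for both (95% interval −1.94 to 1.94 for the annotated and −1.71 to 1.71 for the unannotated intron; limma adjusted p = 1), in a comparison that called 2.65% of 377 events. In Ribo-Zero, both dbr1 libraries were at 1 for either intron, and the -rap libraries were at 0.99 and 0.98 for either intron.

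The Ribo-Zero rise was 0.015 in PSI for each intron. On the log2 odds scale it was 1.31 for the annotated intron (SE 0.48, 95% interval 0.27 to 2.36, limma adjusted p = 0.0425) and 1.31 for the unannotated one (SE 0.42, limma adjusted p = 0.022). This comparison called 44.2% of 319 events, and 43.3% of them upward, so the share of GCR1 introns called is read against a broad rise. The median annotated intron had a mean PSI of 0.895 in dbr1, where 47 of 237 annotated introns, GCR1 included, stood at 1. The calls rested on the last step below the ceiling. With an offset of 0.05 in the log2 odds neither passed (limma adjusted p = 0.456 annotated, 0.361 unannotated), nor did either on PSI itself (0.935 and 0.958). Neither passed without dbr1 replicate 1 (0.122 and 0.0719), dbr1 replicate 2 (0.133 and 0.0808) or -rap replicate 2 (0.241 and 0.167), and the annotated intron also failed without -rap replicate 1 (0.0521). The response in Ribo-Zero minus that in TruSeq, tested itself, was 1.31 log2 odds for either intron (SE 0.76 and 0.66; limma adjusted p = 0.218 annotated and 0.15 unannotated), where 37.6% of 319 events were called. In it, the RNA taken (labelled polyA, or total RNA less rRNA), library preparation and culture cannot be told apart.

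In upf1_null the annotated intron was at 1 in replicate 1 and 0.99 in replicate 2. The unannotated intron was at 0.98 and 0.99, with both groups meeting at 0.99. Against WT the difference was 0 log2 odds for the annotated intron (95% interval −1.93 to 1.93, limma adjusted p = 1) and −0.81 for the unannotated one (95% interval −2.52 to 0.9, limma adjusted p = 0.46), while 12.8% of 382 events were called. With a PSI this close to 1 in WT there was little room above it. Against dbr1_null the values were the same, 0 and −0.81 (limma adjusted p = 1 and 0.556, 3.95% of 380 events called).

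Neither +rap nor sk1 differed from -rap past the threshold at GCR1. The annotated intron was at 0.98 in both +rap libraries and the unannotated one at 0.98 and 0.99, overlapping -rap. The differences were −0.3 log2 odds (95% interval −1.35 to 0.75, limma adjusted p = 0.755) and 0 (95% interval −0.92 to 0.92, limma adjusted p = 1), with 21.2% of 306 events called. In sk1 both were −0.51 against -rap (95% interval −1.56 to 0.53 annotated and −1.43 to 0.4 unannotated; limma adjusted p = 0.742 and 0.734), with 2.04% of 294 events called.

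The lowest GCR1 values of the study were in sporulation. Budding yeast starved of nitrogen and of a fermentable carbon source enters meiosis and packs its nuclei into spores. The annotated intron went from 0.98 and 0.96 at 0 h to 0.96 and 0.94 at 3 h, 0.9 and 0.95 at 6 h, 0.85 and 0.91 at 7.5 h, and 0.83 and 0.67 at 8.5 h. It had no value at 12 h. The libraries of 0 to 6 h lay between 0.9 and 0.98 and those of 7.5 and 8.5 h between 0.67 and 0.91, so the ranges met between 0.9 and 0.91.

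The unannotated intron reached lower values. It was at 0.97 and 0.94 at 0 h, 0.95 in both libraries at 3 h, and 0.93 and 0.95 at 6 h. At 7.5 h it was at 0.64 and 0.47, at 8.5 h at 0.61 and 0.71, and at 12 h at 0.7 in replicate 1 with no value in replicate 2. The 5 values from 7.5 h on were all below the 6 earlier ones, and below the 14 libraries outside sporulation. How many other events were split in this way was not counted, so whether the split is particular to GCR1 is unknown. Late changes were common by another measure. At 8.5 h against 0 h, limma called 40.9% of 176 events at an adjusted p under 0.05, and 23.9% downward.

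**Figure D3:**
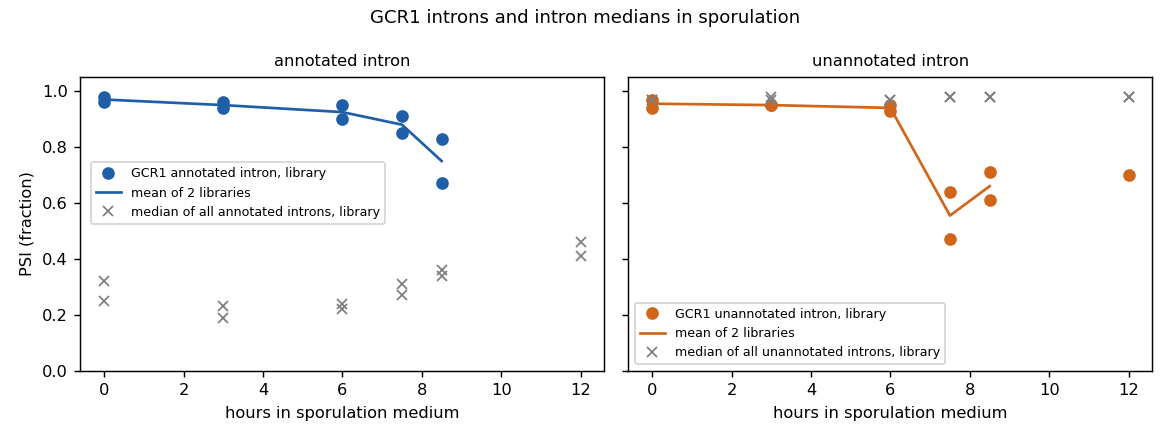
PSI of the annotated (left) and unannotated (right) GCR1 intron against hours in sporulation medium; points are libraries, lines join means of 2 libraries, and grey crosses are the median of all introns of that class in each library. The unannotated intron drops from 0.94 at 6 h to 0.555 at 7.5 h while its class stays between 0.97 and 0.98.

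Step by step, 1 change passed. From 6 h to 7.5 h the unannotated intron fell from 0.94 ± 0.0141 to 0.555 ± 0.12 (SD, n = 2 each), a difference of −3.46 log2 odds (SE 0.41, 95% interval −4.36 to −2.55, limma adjusted p = 0.000206). It had the 5th smallest p of 235 events, of which 16.6% were called and 6.81% downward. The annotated intron, at 0.925 ± 0.0354 and 0.88 ± 0.0424, differed by −0.71 (95% interval −1.76 to 0.34, limma adjusted p = 0.387). The call on the unannotated intron held whichever of the 4 libraries was left out (highest limma adjusted p 0.00466). It was lost when only these 4 libraries entered the fit (limma adjusted p = 0.0673).

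The other steps did not pass for either intron. From sk1 to 0 h the differences were −0.17 and −0.64 log2 odds (annotated and unannotated; limma adjusted p = 0.891 and 0.271), where 36.9% of 293 events were called. From 0 to 3 h they were −0.64 and −0.19 (limma adjusted p = 0.405 and 0.815, 9.76% of 287 called). From 3 to 6 h they were −0.5 and −0.22 (limma adjusted p = 0.981 and 1), and limma called 0 of 326 events, with 22 at an unadjusted p under 0.05 and 0 called on PSI itself. From 7.5 to 8.5 h the annotated intron differed by −1.2 (95% interval −2.25 to −0.16, limma adjusted p = 0.224) and the unannotated one by 0.63 (95% interval −0.28 to 1.53, limma adjusted p = 0.482), with 3.96% of 202 events called.

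Against the start of sporulation, both introns were lower at the late times. These comparisons were chosen after seeing the values. At 8.5 h the annotated intron had fallen from 0.97 ± 0.0141 to 0.75 ± 0.113, a difference of −3.05 log2 odds (SE 0.47, limma adjusted p = 0.00047), and the unannotated one from 0.955 ± 0.0212 to 0.66 ± 0.0707, a difference of −3.24 (SE 0.41, limma adjusted p = 0.000147). Of 176 events in that comparison 40.9% were called, 23.9% downward. Both calls were lost with just the compared libraries in the fit (limma adjusted p = 0.0758 annotated, 0.0519 unannotated). At 7.5 h the unannotated intron was lower by 0.4 in PSI (−3.87 log2 odds, SE 0.41, limma adjusted p = 7.39e-05), and the annotated one by 0.09 (−1.85, SE 0.47, limma adjusted p = 0.0126), with 31.9% of 210 events called and 20.5% downward. With just the compared libraries in the fit, neither 7.5 h call passed (0.0847 unannotated, 0.143 annotated). The annotated call was also lost on PSI itself (limma adjusted p = 0.131), without 0 h replicate 1 (0.08) and without 7.5 h replicate 1 (0.0839).

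An F-test over the 5 times from 0 to 8.5 h, also added after seeing the data, passed for both introns (limma adjusted p = 0.00305 annotated, 4.2e-05 unannotated). It called 48.5% of 165 events, and the annotated call was lost with just the compared libraries in the fit (0.0553). The F-test over all 6 times could not be made for GCR1, for want of values at 12 h. Taking the lone 12 h library to vary like the other groups, the unannotated intron differed from 0 h by −2.99 log2 odds (SE 0.5, limma adjusted p = 0.00206, 21.5% of 293 events called) and from 8.5 h by 0.25 (SE 0.5, limma adjusted p = 0.882, 16.7% of 204 called). These values rest on 1 library at 12 h with a spread borrowed from other groups, and the first was lost with just the compared libraries in the fit (limma adjusted p = 0.211).

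**Figure D4:**
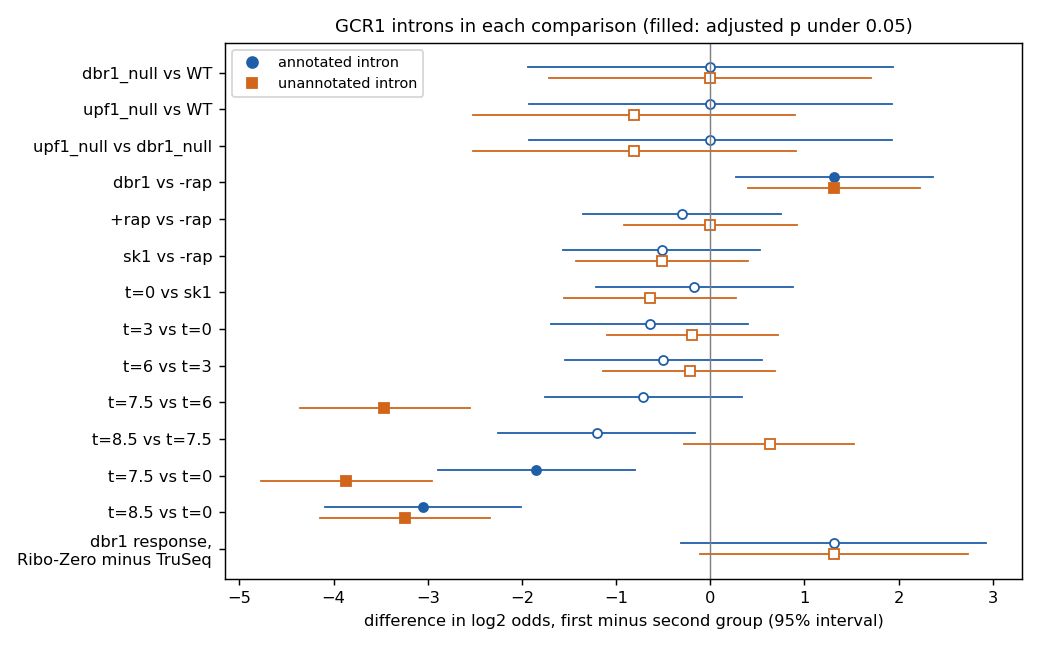
Differences in log2 odds, first minus second group, for the annotated (blue circles) and unannotated (orange squares) GCR1 intron, with 95% intervals from limma. Filled symbols passed an adjusted p under 0.05; the largest differences are those of 7.5 and 8.5 h against earlier times.

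The PSI of the introns lay apart at 7.5 h. As the introns overlap along nearly all of their length, the same unspliced reads may enter both values, which are then not independent measurements. Through 6 h and in all other groups the unannotated minus the annotated PSI lay between −0.02 and 0.03 in every library. At 7.5 h it was −0.21 and −0.44, and at 8.5 h −0.22 and 0.04, so replicate 2 of 8.5 h showed no such gap. The gap is given as a description: with 2 libraries at each time, an exact two-sided permutation test against 6 h cannot go below p = 0.333, the value it gave at 7.5 h, and it gave p = 1 at 8.5 h. The 7.5 and 8.5 h libraries also held the fewest events with a value, and the part of that in these PSI values was not tested.

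The change from 6 to 7.5 h was set beside that of every other intron. Of the 75 unannotated introns with values at both times, GCR1 had the lowest difference, −0.385, against a median of 0. The next lowest were those of SIP18, close to it at −0.35, and YNL194C, at −0.185. Of 58 unannotated introns with a mean of at least 0.9 at 6 h, GCR1 again had the lowest, and the median of these was 0. Apart from GCR1, 32 of 74 unannotated introns were lower at 7.5 h, and 4 were called up and 7 down at a limma adjusted p under 0.05. Of 140 annotated introns apart from GCR1, 49 were lower, 18 were called up and 5 down, and the median difference was 0.02. Against 0 h, FMP45, which encodes an eisosome-related membrane protein, was the 1 unannotated intron of 73 with a lower difference at 7.5 h. From 0 to 8.5 h, 12 of 89 annotated introns had a lower difference than the −0.22 of the annotated GCR1 intron, and among the 16 with a mean of at least 0.9 at 0 h the median was −0.158. YJR079W, also long and near 1 at 0 h (0.995 ± 0.00707), was at 0.57 and 0.59 at 8.5 h and at 0.99 in both libraries at 12 h. FMP45 was again the 1 unannotated intron, of 71, with a lower difference than GCR1. The mean PSI of FMP45 had gone from 0.93 ± 0.0141 at 0 h to 0.39 ± 0 by 6 h, before that of GCR1.

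**Figure D5:**
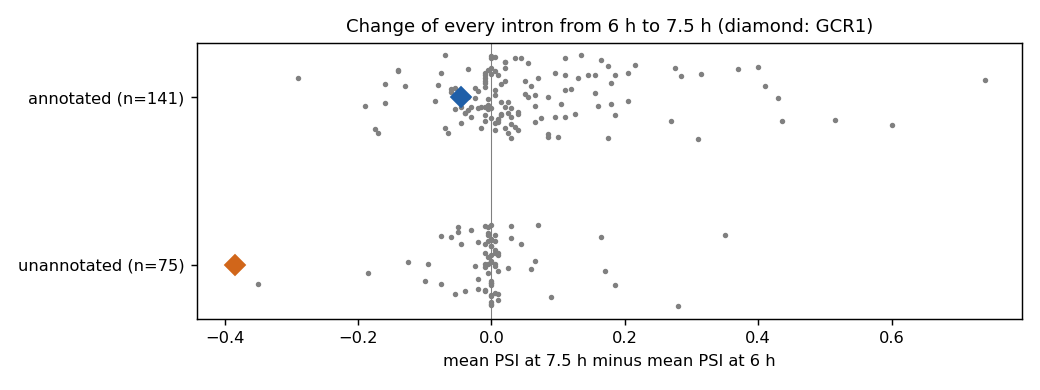
Mean PSI at 7.5 h minus mean PSI at 6 h for each annotated (n = 141) and unannotated (n = 75) intron; grey points are other genes, spread vertically only for display, and diamonds are GCR1. The unannotated GCR1 intron, at −0.385, is the lowest of its class, next to SIP18 at −0.35, and the annotated one, at −0.045, lies within its class.

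The other long introns give a second reference. Of the long annotated introns apart from GCR1, 8 had values at 6 and 7.5 h, of which 3 were lower at 7.5 h. At a limma adjusted p under 0.05, 0 were called up and 1 down, with a median difference of 0 in PSI, the same as over all events, of which 23 were called up and 15 down of 233. From 0 to 8.5 h, 1 was called up and 3 down of 8, with a median of −0.055, beside 30 up and 40 down of 174 events with a median of 0. In Ribo-Zero dbr1, 5 of 10 were called up against -rap and 0 down, with a median of 0.235. Of all annotated introns 118 of 204 were called up, with a median of 0.248, and of all events 136 of 317, with a median of 0.05, so the share for the long introns is near that of the others. The list's median PSI was 0.497 in WT and 0.622 in -rap, below GCR1 in both, though single members reached or passed it. YJR079W was at 1 in both WT libraries and YHL050C at 1 and 0.99, and in -rap NOG2 was at 1 and YJR079W and YHL050C at 0.99 in both libraries. In WT, however, NOG2 was at 0.04 and 0.17, so unlike GCR1 it was not high in both kinds of library.

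At 12 h most GCR1 values were missing. Of 76 annotated introns with a value in all 24 other libraries, GCR1 was the 1 that lacked a value in both 12 h libraries, and 3 more (ATG44, PSP2 and TUB1) lacked it in 1 of them. Among 62 such unannotated introns, GCR1 was the 1 that lacked a value in a single 12 h library, and 1 other, with no gene assigned, lacked both. Of the 405 events, 356 and 328 had a value in these libraries. The reads behind PSI at 12 h are unknown, and why GCR1 values are missing was not tested. In bulk samples fewer cells with a transcript and less of it per cell cannot be told apart, and PSI does not measure expression.

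The pathway around Gcr1 was barely represented. Of 23 genes for glycolytic enzymes and their activators, GCR2 and RAP1 among them, 1 had an event and none a Branch-seq site. That was an unannotated intron in PDC1, the main pyruvate decarboxylase gene (XII, 233643 to 233885). Its PSI was 1 in every library outside sporulation and at 0 h, 0.98 to 1 from 3 to 7.5 h, 0.98 in both libraries at 8.5 h, and 0.98 and 0.97 at 12 h. Against 0 h it fell, with differences of −1.61 log2 odds at 8.5 h (SE 0.29, limma adjusted p = 0.000928) and −1.83 at 12 h (SE 0.3, limma adjusted p = 0.00177, 27% of 267 events called), which is 0.025 in PSI at 12 h. At 7.5 h against 0 h the difference was −0.51 (limma adjusted p = 0.204). These calls lie on the last steps below the ceiling, and no other offset or scale was run for PDC1.

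Of 6 other genes for transcription regulators that have introns, 5 had events (HAC1, HMRA1, SUS1, TAF14 and TFC3), 7 in all. At most 4 could be tested in a comparison. From 6 to 7.5 h just HAC1 could, and it stood at 0.965 ± 0.0212 and 0.985 ± 0.0212 (n = 2 each, limma adjusted p = 0.629). From 0 h, at 0.89 and 0.62 (0.755 ± 0.191), HAC1 rose to 0.995 ± 0.00707 at 8.5 h (limma adjusted p = 0.0138, 40.9% of 176 events called). That is the opposite direction to GCR1, and its end point lies near the ceiling. No other offset, scale or set of libraries was run for HAC1 or TAF14. TAF14, a gene for a subunit of TFIID and of chromatin remodellers, rose in upf1_null, from 0.205 ± 0.0354 to 0.405 ± 0.0354 (limma adjusted p = 0.0476), where it was the 1 of 4 introns that passed, beside 12.8% of all events. From 8.5 to 12 h it rose again, from 0.155 ± 0.0495 to 0.635 ± 0.191 (limma adjusted p = 0.00532, 23% of 200 events called).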

How the data were processed

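Per the labels and the submitters' processing notes, TopHat2 (2.0.0 for TruSeq), Bowtie and sacCer3 are named for the RNA-seq libraries, with Cufflinks 2.2.1 and Cuffdiff also for TruSeq. The notes name Bowtie 1.0.0, SAMtools 0.1.7a and sacCer2 for Branch-seq and Bowtie 1.0.0 and sacCer3 for Lariat-seq. PSI, the fraction deposited for each RNA-seq library, has no stated formula, and how the authors computed it is not given in the sources used here. The deposited Branch-seq values are CPM, and the deposited Lariat-seq values are read counts per junction.

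Introns were assigned to genes by position in RefSeq's R64 gene table. PSI was taken to log2 odds with an offset of 0.01. A mean per group was fitted with limma 3.58.1 in R 4.3.3 over the 6 TruSeq or the 20 Ribo-Zero libraries (all 26 for the difference between preparations), on the events with both values in both groups, with Benjamini-Hochberg adjustment over these. The procedure was tested on simulated data, with a shift of 2 log2 odds given to 40 events. It called 67.5% of them for upf1_null against WT and 77.5% for 8.5 h against 0 h. Of unchanged events it called 0.993% and 2.08%. A shift of this size can therefore be missed. Every GCR1 event was named. Other genes were named from lists, for likeness to GCR1, or as the extremes beside it, the last after their values were seen. The members and lists were chosen with earlier results of these data known. Replicates are called biological in the design text, and same-numbered libraries are not stated to share a culture. Alternatives to the offset, scale, events, libraries and moderation were also run. No GCR1 sequence was used here.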

Additional observations from a re-analysis of the deposited data

How the results depend on the processing

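Of 32 GCR1 results with a test, 22 did not pass limma's threshold, and none of the 243 alternatives run on them passed. The other 10 passed, and 92 of their 116 alternatives did. No called direction was reversed. In Ribo-Zero dbr1 against -rap, an offset of 0.05 gave 0.4 log2 odds for either intron (limma adjusted p = 0.456 annotated and 0.361 unannotated), and PSI itself 0.015 (0.935 and 0.958). With just the compared libraries in the fit, which leaves fewer samples to estimate the spread, the same 1.31 log2 odds had an adjusted p of 0.057 for either intron, and testing unannotated introns alone gave 1.31 with 0.0632. Leaving out 1 library gave 1.01 to 1.61 for either intron. Over all alternatives the adjusted p ran from 0.043 to 0.935 (annotated) and from 0.0246 to 0.958 (unannotated). A fit on the compared libraries alone also ended the calls on the unannotated intron at 7.5 h against 6 h (−3.46, adjusted p = 0.0673; 9.98e-05 to 0.0673 over all), at 7.5 h (−3.87, 0.0847; 3.06e-05 to 0.0847) and 8.5 h against 0 h (−3.24, 0.0519; 8.07e-05 to 0.0519), and for the lone 12 h library (−2.99, 0.211). The same fit ended those on the annotated intron at 7.5 h (−1.85, 0.143; 0.0123 to 0.143) and 8.5 h (−3.05, 0.0758; 0.000311 to 0.0758) and in the F-test (0.0553; 0.00199 to 0.0553). At 7.5 h against 0 h the annotated intron was at −0.09 on PSI itself (0.131) and between −2.23 and −1.46 without 1 library. Among all sites of both lists together the Branch-seq value ranked 135 of 466. With the replicate number as a block no call changed (unannotated, 7.5 h against 6 h: −3.46, adjusted p = 0.000393). The numbers share no stated culture, and the replicate differences of 2 groups correlated at −0.383 to 0.427 over events (Ribo-Zero, 45 pairs of groups, 14 over 0.1). Tests restricted to events complete in every Ribo-Zero library, tests of the annotated intron among unannotated ones, and both comparisons of 12 h with 2 libraries could not be fitted for GCR1. The read depth behind PSI is unknown, which limits the precision of all values near 1.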

Other observations

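Events whose PSI over groups was most like that of the GCR1 introns were high-PSI events, most of them at alternative splice sites. By mean absolute difference of group mean PSI, among 282 events sharing at least 10 groups, the closest to the annotated intron were an A3SS (alternative 3′ splice site) event of TAN1, a tRNA acetylation gene (0.015 over 10 groups), an A3SS event of RPS19B (0.0173 over 11 groups), an A5SS (alternative 5′ splice site) event of GPI15, a gene of GPI anchor synthesis (0.0175 over 10 groups), an unannotated intron of RPS16B (0.0183 over 12 groups) and an A5SS event of RPL19B (0.021 over 10 groups). TAN1 and GPI15 were also the closest to the unannotated intron (0.0125 and 0.015). The direction of PSI in A3SS and A5SS events is not given in the sources used here. TAN1, GPI15 and RPL19B have no mean of 2 libraries at 7.5 h or at 8.5 h, so their likeness leaves out the late drop of GCR1. The other events nearest to the unannotated intron were RPL19B (0.0215) and unannotated introns on chromosomes XIV (0.0215) and II (0.022). They lack both means too, so none of its nearest events covers that drop.

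By correlation of log2 odds over the 9 Ribo-Zero groups with values, among 202 events, the annotated intron was nearest to the annotated introns of PRE3, a proteasome subunit gene (Pearson r = 0.942), and REC107, a meiotic recombination gene (0.911), and to A3SS events of RPL23A (0.913), RPS16B (0.908) and ECM33 (0.904). PRE3 varied between 0.035 and 0.15, at the other end of the PSI scale. The unannotated intron was nearest to an A3SS event of VMA9, a vacuolar ATPase gene (0.952), an A3SS event of RPS16B (0.915), unannotated introns of RPL30 (0.909) and RPS16B (0.894), and the annotated intron of SNC1, a vesicle fusion gene (0.895). All of these share their libraries with GCR1, and the values describe 9 points each.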
